A study of Mus musculus with 18 samples.

Results

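The T cell receptor complex and the first steps of its signalling were followed here through 9 genes: Cd3e, Cd3d, Cd3g, Cd247, Lck, Zap70, Lat, Lcp2 and Cd28. They were picked by name, with earlier results of these data known, and all 9 were found among the 23930 genes of the amplicon panel. RNA had been measured in CD4 and in CD8 T cells sorted by flow cytometry from the bone marrow of 3 kinds of mouse, with 3 libraries for each kind and cell type. Zinc-fed C57BL/6 mice were the wild-type control, and zinc-fed pMT-10 mice were the group in which the IL-10 transgene was switched on. The pMT-10 mice without zinc carried the same transgene but drank control water. Each regimen lasted 30 days. The transgene is driven by a metallothionein promoter, which responds to zinc and is active in many cell types.

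The T cell receptor binds peptide held by MHC molecules but has no signalling tail of its own. The CD3 chains and the zeta chain (Cd247) carry the motifs that the kinase Lck phosphorylates. The kinase Zap70 then docks on them and phosphorylates the adaptors Lat and SLP-76 (Lcp2), which gather the enzymes of the calcium, Ras and NF-kappaB branches. CD28 is the receptor for the costimulatory ligands CD80 and CD86 and acts beside the receptor complex. In bone marrow, T cells are a minority, and many of the resident ones are memory cells.

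Total counts ran from 10546798 to 18519474 per library, and every one of the 9 genes held between 1341 and 38181 reads in each library, so counting error was small beside the spread between replicates. All 9 passed the filter on low counts, as did 11316 genes of the panel in all. Levels are given as CPM, which are counts relative to the library's total, on TMM-scaled library sizes. Each gene was read by 1 amplicon, so levels were compared within a gene and never between genes. The labels do not say whether the 3 libraries of a group came from separate sorts, so the tests measure the spread between these libraries. All 12 libraries of zinc-fed mice were on 1 sequencing chip and the 6 of mice without zinc on another, so that chip and zinc cannot be told apart against the pMT-10 control. Y-linked reads ran from 2866 to 5188 in libraries of C57BL/6 mice and from 0 to 8 in those of pMT-10 mice, so sex and strain cannot be told apart against the wild-type control. Il10 itself stood at 21.1 ± 4.71 CPM in CD4 cells of zinc-fed pMT-10 mice (SD, n = 3), against 6.13 ± 2.76 in the wild-type and 2.71 ± 1.16 in the transgenic control. Among CD8 libraries it was at 0 in all 6 controls and averaged 12.8 ± 9.62 CPM with the transgene switched on. The coreceptor genes matched the sorts: Cd4 reached at most 5.55 CPM in any CD8 library and Cd8a at most 10.03 CPM in any CD4 library. Cd8b1 was higher than Cd8a in CD4 libraries, at 18.7 to 35.5 CPM, beside at least 1488 CPM in every CD8 library.

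The 3 CD3 genes sit side by side on mouse chromosome 9 (GENCODE vM21, GRCm38). Cd3g spans 44969572-44980431 on the minus strand, Cd3d spans 44981786-44987339 on the plus strand and Cd3e spans 44998740-45009627 on the minus strand. Cd3g and Cd3d are thus transcribed away from each other across a gap of 1354 bases. Zap70 (36761798-36782818), Cd28 (60716800-60773359) and Cd247 (165788681-165877277) lie on the plus strand of chromosome 1. Lck is on chromosome 4 (129548344-129573641, minus strand), Lat on chromosome 7 (126363824-126369570, minus strand) and Lcp2 on chromosome 11 (34046920-34092295, plus strand). Lcp2 overlaps 4930469K13Rik and Cd247 overlaps Pou2f1 on the opposite strand, and both partners have amplicons of their own in the panel. All 9 are protein-coding.

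The stretches just upstream of 4 of these genes are shown because Cd3g, Zap70 and Lat had the largest changes in CD4 cells and Cd3d is the divergent neighbour of Cd3g. They are RefSeq windows on GRCm38.p6, ending at the base before the annotated start, without any base that lies in an annotated exon: chr9:44980432-44980681 (minus strand) for Cd3g, chr9:44981536-44981785 (plus) for Cd3d, chr1:36761548-36761797 (plus) for Zap70 and chr7:126369571-126369818 (minus) for Lat. Capitals mark matches on either strand to the 6 motifs searched: the E-boxes CAGCTG and CAGGTG, RUNX TGTGGT, ETS CAGGAA, STAT TTCNNNGAA and IRF, which is GAAA, any 2 bases and GAAA again.
Cd3g: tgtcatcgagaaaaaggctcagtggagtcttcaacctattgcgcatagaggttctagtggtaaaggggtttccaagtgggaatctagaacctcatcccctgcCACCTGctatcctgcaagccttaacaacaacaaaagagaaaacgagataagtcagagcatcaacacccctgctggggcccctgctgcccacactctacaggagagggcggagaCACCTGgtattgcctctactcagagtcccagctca
Cd3d: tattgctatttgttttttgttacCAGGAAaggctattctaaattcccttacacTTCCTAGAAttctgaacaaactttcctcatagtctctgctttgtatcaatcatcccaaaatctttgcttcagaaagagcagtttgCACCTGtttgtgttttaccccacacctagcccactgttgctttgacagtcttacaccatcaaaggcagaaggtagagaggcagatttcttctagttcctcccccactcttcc
Zap70: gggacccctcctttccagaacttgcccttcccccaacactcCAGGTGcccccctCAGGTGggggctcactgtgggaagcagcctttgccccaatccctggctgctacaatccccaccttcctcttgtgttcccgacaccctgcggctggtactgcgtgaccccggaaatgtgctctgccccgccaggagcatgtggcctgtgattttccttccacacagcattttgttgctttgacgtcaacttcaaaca
Lat: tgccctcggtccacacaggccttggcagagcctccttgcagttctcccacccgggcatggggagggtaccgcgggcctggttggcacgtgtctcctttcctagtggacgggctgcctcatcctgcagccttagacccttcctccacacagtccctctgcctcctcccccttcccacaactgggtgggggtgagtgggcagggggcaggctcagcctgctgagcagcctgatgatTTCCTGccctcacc
The Cd3g window held CAGGTG at positions -148 and -35 from the start. The Zap70 window shown, 1 of those listed for that gene, held it at -209 and -196. The Cd3d window had it once, at -112, together with an ETS match at -227 and a STAT match at -197. The Lat window had a single ETS match, at -16. Another count took the full 250 bases, exon bases included, of the 11 windows listed for 8 of the 9 genes (Cd28 had no entry). Of these, 6 held CAGGTG, 7 held the ETS letters and 1 held the STAT letters. CAGCTG was in 1 of the 11 windows, the RUNX letters in 2 and the IRF letters in 0. Some of these matches lay outside the stretches left after exon bases were cut, such as CAGGTG at -10 and the ETS letters at -56 for Cd247. In 32851 mouse windows of 250 bases, 17.2% held CAGGTG, 25.7% held CAGGAA and 7.02% held TTCNNNGAA, while CAGCTG was in 13%, TGTGGT in 14% and the IRF letters in 2.98%. These are matches of letters and not measured binding.

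In CD4 cells, most of the receptor complex and its proximal adaptors had more RNA in zinc-fed pMT-10 mice than in zinc-fed C57BL/6 mice. Of the 9 genes, 6 rose (edgeR quasi-likelihood test, Benjamini-Hochberg adjusted over 11316 genes, called under 0.05), and 0 fell: Lat, Zap70, Cd3g, Cd3e, Cd247 and Lcp2 rose 1.41- to 2.06-fold. By DESeq2, or by edgeR at an unadjusted p under 0.05, 0 were lower as well (16.2% of all genes were lower at that unadjusted p). Of all genes tested, 9.29% were called higher and 9.40% lower in this comparison. The median log2 change was 0.58 over the 9 genes and -0.05 over all genes tested. In RNA from sorted bulk cells, a change in the share of cells that express a gene and a change in RNA per cell cannot be told apart.

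**Figure D1:**
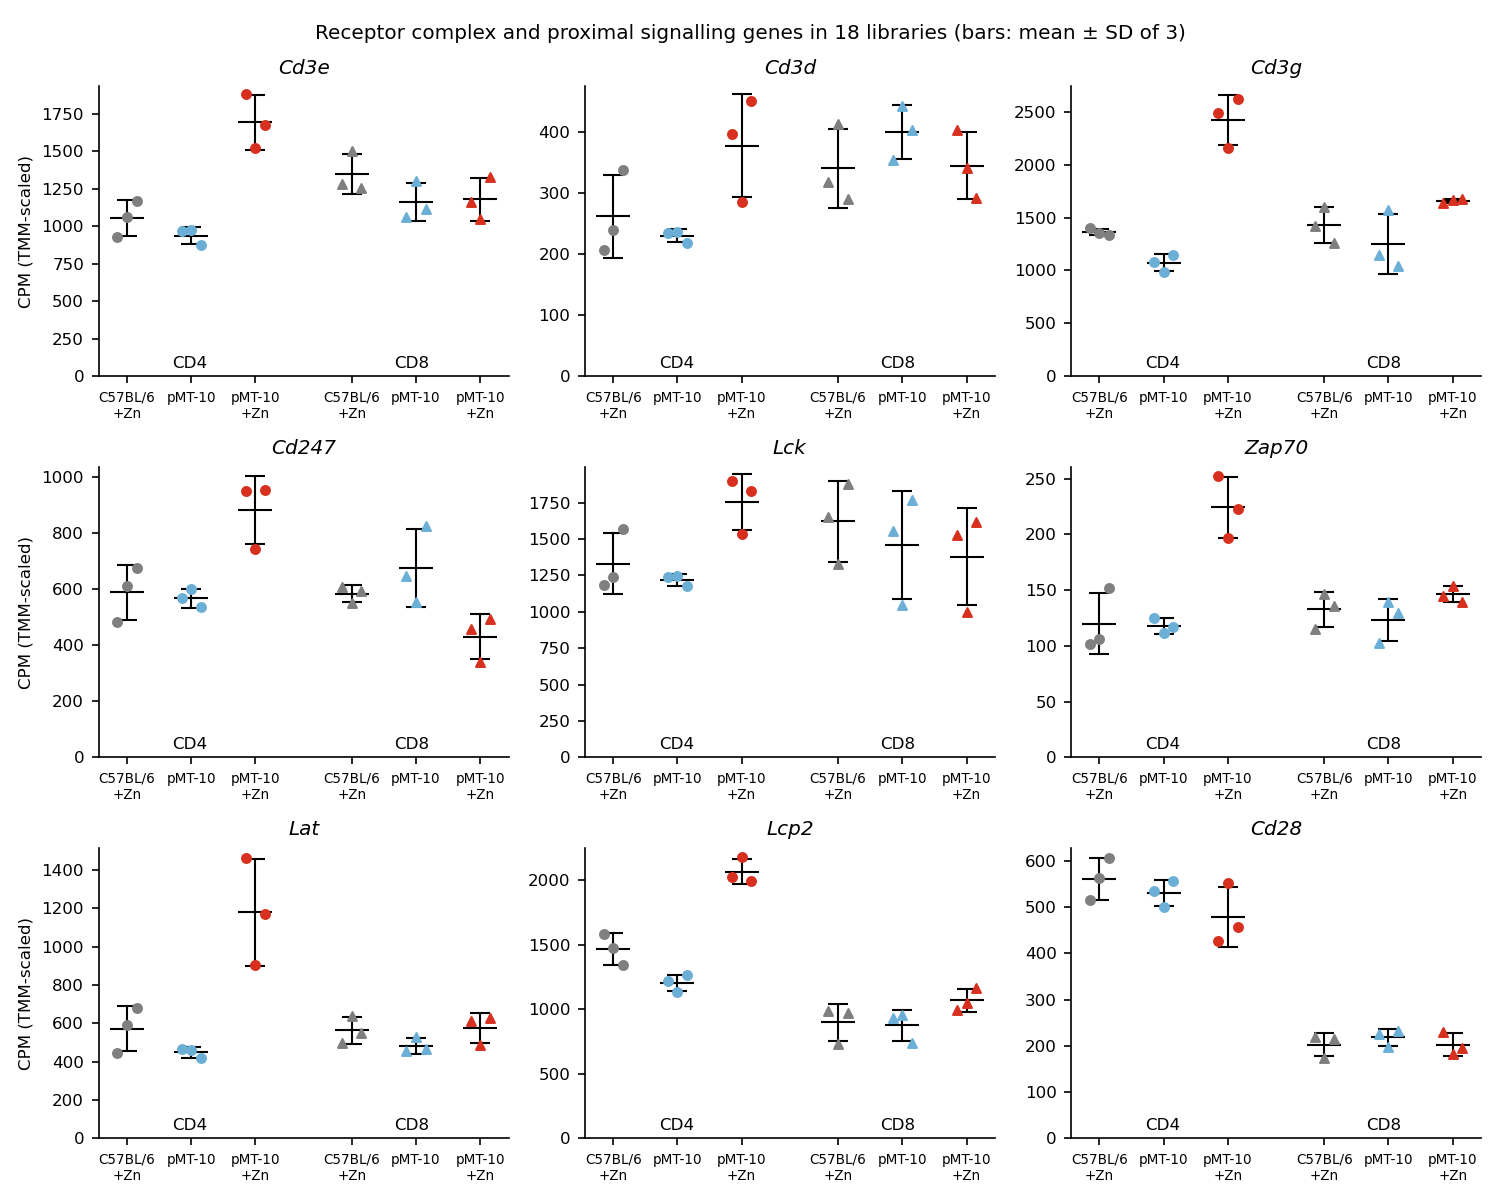
Level of each gene in CPM (y axis, TMM-scaled, starting at 0) in every library, by kind of mouse and sorted cell type (x axis: circles CD4, triangles CD8, +Zn marks zinc water). Bars are mean ± SD of 3 libraries. In CD4 cells the zinc-fed pMT-10 libraries lie above both control groups for Cd3e, Cd3g, Cd247, Zap70, Lat and Lcp2, while Cd28 separates by cell type alone.

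Among the receptor chains, Cd3e (the epsilon chain, present in pairs in each complex) measured 929.6, 1063 and 1171 CPM in the wild-type CD4 libraries, 967, 975 and 873 in the pMT-10 libraries without zinc, and 1885, 1523 and 1673 in the zinc-fed pMT-10 libraries. All 3 zinc-fed pMT-10 values lay above all 6 control values. The log2 change was 0.68 (SE 0.13, adjusted p = 0.00066) against wild type and 0.85 (SE 0.13, adjusted p = 6.82e-05) against pMT-10 without zinc.

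Cd3g, the gamma chain that pairs with epsilon, measured 1398, 1354 and 1337 CPM in wild-type CD4 cells, 1082, 988 and 1145 without zinc, and 2491, 2158 and 2615 in zinc-fed pMT-10 cells. The groups did not overlap, and the lowest zinc-fed pMT-10 library exceeded the highest control library. The log2 change was 0.83 (SE 0.14, adjusted p = 0.000173) against wild type and 1.18 (SE 0.14, adjusted p = 3.63e-06) against the transgenic control.

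Cd3d, the delta chain, which is the neighbour of Cd3g, was less clear. It measured 208, 240.3 and 339 CPM in wild-type CD4 cells and 397, 286 and 451 in zinc-fed pMT-10 cells, so the lowest of the latter fell below the highest of the former. Its log2 change of 0.53 (SE 0.19, adjusted p = 0.0522) missed the threshold. It was called by 3 of 5 other fits, which were edgeR with DESeq2's size factors (adjusted p = 0.0444), edgeR with no filter (0.00956) and DESeq2 (0.0300). It was also called in 2 of the 6 fits that left out a library, without replicate 3 of the wild-type group (adjusted p = 0.00828) and without replicate 2 of the zinc-fed pMT-10 group (0.0122). Against pMT-10 without zinc, at 236, 237 and 218 CPM, Cd3d rose by 0.72 on the log2 scale (SE 0.19, adjusted p = 0.00896). That call was lost without replicate 3 of the zinc-fed pMT-10 group (adjusted p = 0.0673).

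Cd247 encodes the zeta chain, which holds most of the signalling motifs. In CD4 cells it measured 483, 609.6 and 674 CPM in wild type, 568, 601 and 535 without zinc, and 949, 744 and 955 in zinc-fed pMT-10. The zinc-fed pMT-10 libraries again lay above all controls. Cd247 rose 1.499-fold against wild type (log2 0.58, SE 0.16, adjusted p = 0.0134) and 1.55-fold against the transgenic control (log2 0.64, SE 0.16, adjusted p = 0.00738). The call against wild type was lost without replicate 1 of the wild-type group, its lowest library (adjusted p = 0.0925), and without replicate 3 of the zinc-fed pMT-10 group (adjusted p = 0.0622).

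Of the kinases, Zap70 was called and Lck was not. Zap70 measured 102, 106 and 152 CPM in wild-type CD4 cells, 125, 111 and 117 without zinc, and 252, 197 and 223 in zinc-fed pMT-10 cells, with no overlap. It rose 1.87-fold against wild type (log2 0.90, SE 0.16, adjusted p = 0.000325) and 1.90-fold against pMT-10 without zinc (log2 0.93, SE 0.16, adjusted p = 0.000236). Lck, the kinase that acts first and binds the CD4 and CD8 tails, measured 1183, 1239 and 1569 CPM in wild type, 1241, 1246 and 1175 without zinc, and 1896, 1533 and 1833 in zinc-fed pMT-10. One zinc-fed pMT-10 library was below the highest wild-type library. The log2 change of Lck was 0.40 (95% interval 0.01 to 0.79, adjusted p = 0.151) against wild type and 0.52 (0.13 to 0.91, adjusted p = 0.0560) against the transgenic control, and neither was called. Lck was called by 4 of 5 other fits against the transgenic control, with an adjusted p as low as 0.00168 when only the compared groups were fitted. That kind of fit also called Lck against wild type (log2 0.42, adjusted p = 0.0380).

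The adaptor Lat had the largest fold change of the 9 genes in CD4 cells against wild type. Lat, the membrane scaffold, measured 446, 589 and 681 CPM in wild-type CD4 cells, 466, 459 and 418 without zinc, and 1461, 903 and 1171 in zinc-fed pMT-10 cells. The zinc-fed pMT-10 libraries were the most variable group for Lat (SD 279 CPM), yet all lay above every control. Lat rose 2.06-fold against wild type (log2 1.04, SE 0.17, adjusted p = 0.000145) and 2.63-fold against pMT-10 without zinc (log2 1.40, SE 0.17, adjusted p = 5.52e-06). Lcp2, the cytosolic adaptor SLP-76, measured 1587, 1477 and 1343 CPM in wild type, 1217, 1136 and 1264 without zinc, and 2031, 2179.8 and 1994 in zinc-fed pMT-10. These groups did not overlap either, and the log2 changes were 0.49 (SE 0.13, adjusted p = 0.00961) and 0.78 (SE 0.13, adjusted p = 0.00019).

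Cd28 was the only one of the 9 with a mean below both controls in CD4 cells. It measured 516, 562 and 606 CPM in wild type, 535, 501 and 556 without zinc, and 427, 552 and 457 in zinc-fed pMT-10. The ranges overlapped. The log2 change was -0.23 against wild type (95% interval -0.50 to 0.04, adjusted p = 0.244) and -0.15 against the transgenic control (-0.42 to 0.12, adjusted p = 0.475), so a rise of the size seen for Cd3e lay outside both intervals.

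Against pMT-10 mice without zinc, 7 of the 9 genes were called higher in CD4 cells (6 rose against wild type, and Cd3d was the addition), where 9.38% of all genes tested were. Both comparisons use the same zinc-fed pMT-10 libraries. Of the 9 genes, 8 had every zinc-fed pMT-10 library above every library without zinc, beside 21.0% of all genes, and 6 had every such library above every wild-type library, beside 18.6%. The 9 genes together took 0.967 to 1.10% of all reads in the zinc-fed pMT-10 CD4 libraries and 0.631 to 0.805% in the other 15 libraries. The scaling factors of the zinc-fed pMT-10 CD4 libraries were the lowest of all, at 0.935 to 0.960. With total counts alone as the scale, the median change of all genes in CD4 cells moved from -0.05 to -0.15 against wild type and from -0.05 to -0.20 against pMT-10 without zinc, and the share of calls that were higher moved from 49.7 to 36.5% and from 49.9 to 31.4%. In CD8 cells against wild type that share moved from 64.5 to 74.9%. The counts of 6 and 7 genes were the same under that scale.

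**Figure D2:**
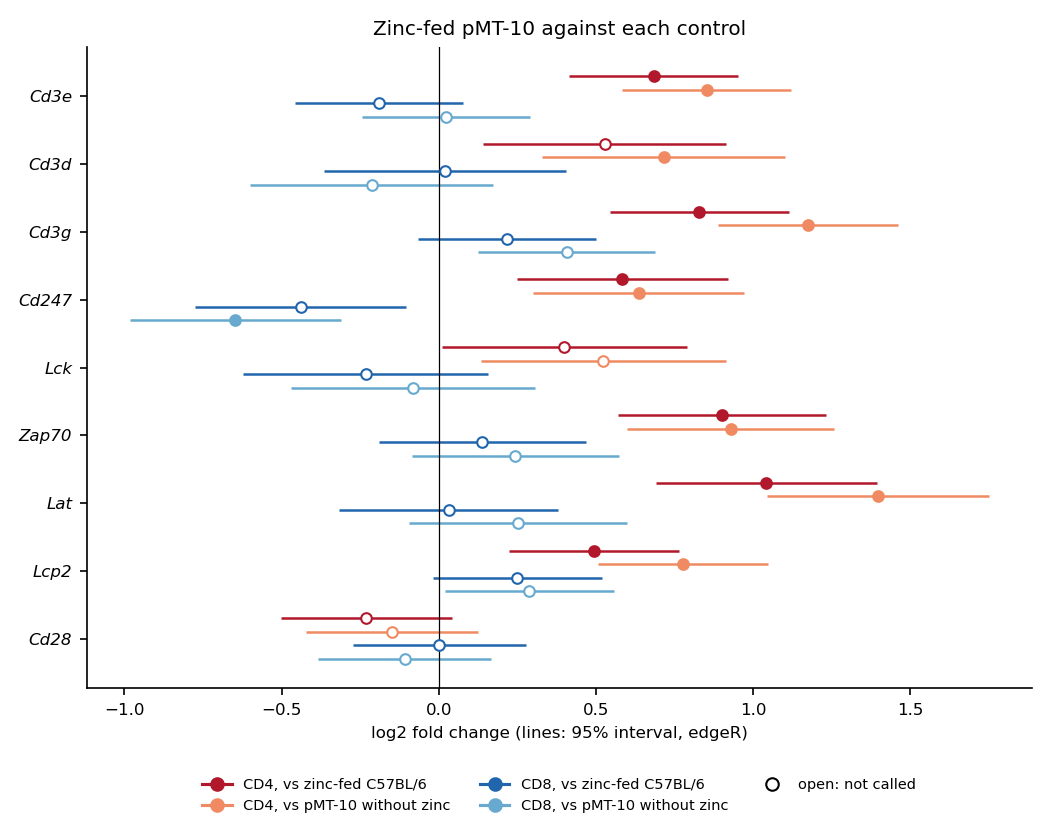
Log2 fold change of each gene in zinc-fed pMT-10 mice against each control (x axis; dots with 95% intervals from edgeR; filled dots were called), in CD4 (red shades) and CD8 cells (blue shades). The CD4 values lie to the right of 0 except for Cd28, and the only filled CD8 dot is Cd247, at -0.65.

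In CD8 cells none of the 9 genes was called higher against either control. Against zinc-fed C57BL/6 mice, 0 of the 9 genes were called in either direction by edgeR and by DESeq2, where 8.81% of all genes tested were called by edgeR. Cd247 alone of the 9 had an unadjusted p under 0.05. The 9 log2 changes ran from -0.44 (Cd247) to 0.25 (Lcp2), with a median of 0.02. Cd3g and Lcp2 had every zinc-fed pMT-10 library above every wild-type library, beside 12.2% of all genes, and Cd247 had every one below, beside 11.4%.

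The zeta chain Cd247 had the largest negative log2 change in CD8 cells. It measured 609.4, 552 and 593 CPM in wild type, 647, 553 and 825 without zinc, and 458, 342 and 493 in zinc-fed pMT-10. The zinc-fed pMT-10 libraries lay below all controls. The log2 change was -0.44 (95% interval -0.77 to -0.10, adjusted p = 0.0958) against wild type, which was not called, and -0.65 (-0.98 to -0.31, adjusted p = 0.0142) against pMT-10 without zinc, which was. That call was lost without replicate 3 of the transgenic control, its highest library (adjusted p = 0.113), without replicate 2 of the zinc-fed pMT-10 group, its lowest (adjusted p = 0.0862), and when only the compared groups were fitted (adjusted p = 0.0652). It was the only one of the 9 called lower there, where 2.65% of all genes were, and 0 were called higher, where 5.10% were. At an unadjusted p under 0.05, edgeR had 2 higher (Cd3g and Lcp2), where 11.8% of all genes were, and DESeq2 called 1 (Cd3g). Cd3g, Zap70 and Lcp2 had every zinc-fed pMT-10 library above every library without zinc, beside 11.9% of all genes, and Cd247 had every one below, beside 11.2%.

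In CD8 cells Cd3e measured 1281, 1499.8 and 1259 CPM in wild type, 1062, 1303 and 1118 without zinc, and 1159, 1049 and 1331 in zinc-fed pMT-10, with overlap throughout. Its log2 change was -0.19 (95% interval -0.46 to 0.08) against wild type and 0.02 (-0.24 to 0.29) against the transgenic control. Cd3g measured 1417, 1601 and 1262 CPM in wild type, 1142, 1572 and 1038 without zinc, and 1637, 1666 and 1671 in zinc-fed pMT-10. The zinc-fed pMT-10 libraries were the highest of the 3 kinds of mouse and nearly equal to each other. The log2 change of Cd3g was 0.22 (-0.07 to 0.50, adjusted p = 0.367) against wild type and 0.41 (0.12 to 0.69, adjusted p = 0.0728) against the transgenic control. The latter was called by DESeq2 (adjusted p = 0.0323), with total counts as the scale (adjusted p = 0.0361) and without replicate 2 of the transgenic control, its highest library (adjusted p = 0.00455). Cd3d stood at 341 ± 64.8 CPM in wild type, 401 ± 44.8 without zinc and 346 ± 55.3 in zinc-fed pMT-10 (SD, n = 3), which overlapped.

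For the kinases and adaptors in CD8 cells, values are log2 changes with 95% intervals. The log2 change of Zap70 was 0.14 (-0.19 to 0.47) against wild type and 0.24 (-0.08 to 0.57) against the transgenic control. That of Lat was 0.03 (-0.32 to 0.38) and 0.25 (-0.10 to 0.60), and its levels were 609.7, 487 and 628 CPM in zinc-fed pMT-10 beside 498, 639.9 and 549.96 in wild type. That of Lcp2 was 0.25 (-0.02 to 0.52) and 0.29 (0.02 to 0.56), and that of Lck -0.23 (-0.62 to 0.16) and -0.08 (-0.47 to 0.31). None of these was called. Cd28 stood at 202 ± 25.3, 218 ± 18.4 and 203 ± 24.1 CPM in the 3 kinds of mouse (SD, n = 3), in the order wild type, without zinc and zinc-fed pMT-10.

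For 4 of the 9 genes, the CD8 library of lowest depth held the same place in all 3 groups. In each of the 3 CD8 groups, the library with the lowest total count (10546798 to 11111558 reads) was also the lowest in Lck, Cd247 and Cd28 and the highest in Zap70. The other 5 genes had no such fixed place. For Lck these were 1331 CPM in wild type, 1050.0 without zinc and 997 in zinc-fed pMT-10, against 1526 to 1880.4 in the other 6 CD8 libraries. For Cd28 they were 173, 197 and 183 CPM, and for Zap70 147, 139 and 154 CPM, in the same order. The share of all tested genes with such a fixed place was not computed, and the part of depth in these values was not tested. Without those 3 libraries, Cd247 was still called lower against pMT-10 without zinc (log2 -0.61, adjusted p = 0.0261), Cd3g was called higher there (log2 0.63, adjusted p = 0.00268), and 0 of the 9 were called against wild type.

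Between pMT-10 mice without zinc and zinc-fed C57BL/6 mice, 0 of the 9 genes were called in CD4 cells, where 0.141% of all genes were, and 0 in CD8 cells, where 0.0972% were. DESeq2 also called 0. At an unadjusted p under 0.05 there were 3 in CD4 cells, Cd3g (log2 -0.35), Lat (-0.35) and Lcp2 (-0.28), all lower without zinc and all with an adjusted p of 1, where 2.11% of all genes were lower, and 0 in CD8 cells. Cd3g and Lcp2 had every CD4 library without zinc below every wild-type one, beside 5.48% of all genes. Strain, sex, water and chip all differ in this comparison.

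The difference between the cell types was next taken within each kind of mouse. In zinc-fed C57BL/6 mice, CD8 cells had less Cd28 and Lcp2 than CD4 cells and the other 7 genes were not called. Cd28 differed by -1.47 on the log2 scale (SE 0.13, adjusted p = 4.87e-08), with 219, 173 and 215 CPM in CD8 against 516 to 606 in CD4 libraries. Lcp2 differed by -0.71 (SE 0.13, adjusted p = 0.000351). The 2 lower genes stand beside 12.9% of all genes called lower, and the 0 higher beside 9.28%. Cd3e missed the threshold with 0.35 (95% interval 0.08 to 0.62, adjusted p = 0.0541), with every CD8 library above every CD4 library.

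In pMT-10 mice without zinc 2 genes were lower in CD8 cells, Cd28 with a log2 difference of -1.28 (adjusted p = 3.04e-07) and Lcp2 with -0.46 (adjusted p = 0.0132), where 12.8% of all genes were. The Lcp2 call was lost without replicate 3 of the CD8 group (adjusted p = 0.0869) and without replicate 3 of the CD4 group (adjusted p = 0.0601). Cd3d was higher in CD8 cells, by 0.80 (SE 0.19, adjusted p = 0.00332), where 8.94% of all genes were. Its CD8 libraries measured 354, 444 and 403 CPM and its CD4 libraries 236, 237 and 218.

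In zinc-fed pMT-10 mice, 7 of the 9 genes were lower in CD8 than in CD4 cells, where 14.7% of all genes were, and 0 were higher, where 13.4% were. Cd28 differed by -1.24, Lat by -1.04, Cd247 by -1.03, Lcp2 by -0.95, Zap70 by -0.62, Cd3g by -0.55 and Cd3e by -0.52 on the log2 scale, with adjusted p values between 6.61e-07 and 0.00552. For all 7 of these, every CD8 library lay below every CD4 library, beside 23.5% of all genes. Lck (-0.35, 95% interval -0.74 to 0.04) and Cd3d (-0.13, -0.52 to 0.26) were not called. All 7 calls were kept in each of the 6 fits that left out a library. With total counts as the scale, the share of all calls that were higher in CD8 cells moved from 47.6 to 57.7% in zinc-fed pMT-10 mice and from 41.2 to 31.0% in pMT-10 mice without zinc.

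**Figure D3:**
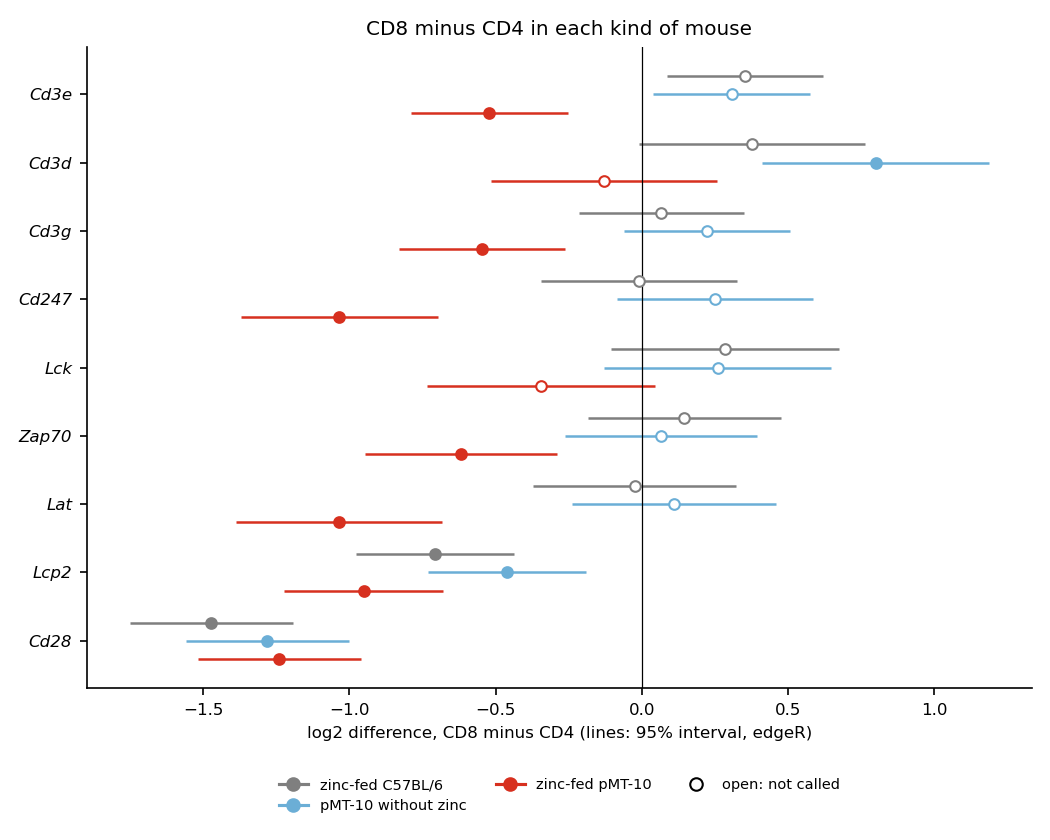
Log2 difference between CD8 and CD4 cells for each gene (x axis, CD8 minus CD4; 95% intervals from edgeR; filled dots were called) in the 3 kinds of mouse. Cd28 and Lcp2 lie left of 0 in all 3, while Cd3e, Cd3g, Cd247, Zap70 and Lat are filled on the left for zinc-fed pMT-10 mice (red).

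Whether the change between kinds of mouse differed between cell types was tested directly, as the change in CD8 cells minus that in CD4 cells. Against zinc-fed C57BL/6 mice, 4 of the 9 genes had a lower change in CD8 cells, where 2.08% of all genes did, and 0 a higher one, where 3.41% did: Cd247 (-1.02, SE 0.23, adjusted p = 0.0116), Lat (-1.01, SE 0.24, adjusted p = 0.0153), Cd3e (-0.87, SE 0.18, adjusted p = 0.0078) and Zap70 (-0.76, SE 0.22, adjusted p = 0.0483). Cd247 and Cd3e kept their calls in all 12 fits that left out a library. Lat lost its call without replicate 1 of the zinc-fed pMT-10 CD4 group (adjusted p = 0.0605) and without replicate 1 of the wild-type CD4 group (adjusted p = 0.0509). Zap70 was called in 3 of the 12 and reached an adjusted p of 0.139 without replicate 1 of the wild-type CD4 group.

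Against pMT-10 mice without zinc, 4 genes again had a lower change in CD8 cells, where 1.34% of all genes did, and 0 a higher one, where 2.44% did: Cd247 (-1.28, adjusted p = 0.0031), Lat (-1.14, adjusted p = 0.00972), Cd3e (-0.83, adjusted p = 0.0152) and Cd3g (-0.77, adjusted p = 0.0283). Cd247 and Lat were called in all 12 fits that left out a library, Cd3e in 11 and Cd3g in 5. Cd3g reached an adjusted p of 0.0852 without replicate 2 of the CD4 group without zinc, and Cd3e 0.0587 without replicate 1 of the zinc-fed pMT-10 CD4 group. This test and the one against wild type share the zinc-fed pMT-10 libraries. Lcp2 (-0.24 and -0.49), Lck (-0.63 and -0.60), Cd3d (-0.51 and -0.93) and Cd28 (0.23 and 0.04) were called in neither test. Against pMT-10 without zinc, Cd3d (adjusted p = 0.0512) was called by 4 of 5 other fits, with adjusted p values from 0.00192 (no filter) to 0.0498 (DESeq2's size factors), and in 2 of the 12 fits that left out a library. DESeq2 also called Zap70 there (adjusted p = 0.0430, beside 0.0889 by edgeR) and Cd3g against wild type (0.0311, beside 0.0643). With total counts as the scale, the median of all genes in these 2 tests moved from 0.05 to 0.21 and 0.22, and the share of calls that were higher from 62.2 to 84.4% and from 64.5 to 87.6%. Under that scale Zap70 (adjusted p = 0.105, against wild type) and Cd3g (adjusted p = 0.0587, against pMT-10 without zinc) were no longer called.

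Over the 6 groups, the order of the levels put CD4 cells of zinc-fed pMT-10 mice first for Cd3e, Cd3g, Cd247, Lck, Zap70, Lat and Lcp2. For Cd3e, Cd3g, Zap70, Lat and Lcp2 this top group did not overlap the next one. The share of all tested genes with that order, or without that overlap, was not computed. For Cd247 it overlapped CD8 cells without zinc (883 ± 120 against 675 ± 138 CPM, SD, n = 3), and for Lck it overlapped wild-type CD8 cells (1754 ± 194 against 1621 ± 276 CPM). Below the top group, every pair of neighbours overlapped for Cd3e, Lck, Zap70 and Lat. Cd3d had CD8 cells without zinc at the top (401 ± 44.8 CPM), and all its neighbours overlapped. Cd28 fell into the 3 CD4 groups (479 to 561 CPM on average) and the 3 CD8 groups (202 to 218 CPM), with overlap inside each set and none between them. Cd247 was the only gene whose lowest group was the zinc-fed pMT-10 CD8 cells, and that group did not overlap its neighbour, CD4 cells without zinc.

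Ratios within a library need no scaling between libraries and show how the genes changed relative to each other. Each count was divided by the Cd3e count of its library, so a change in Cd3e moves every ratio. The share of all tested genes whose ratio to Cd3e did not overlap was not computed. In CD4 cells, the log2 ratio of Lat to Cd3e was -0.90 in wild type, -1.07 without zinc and -0.54 in zinc-fed pMT-10, a difference of 0.35 (SE 0.14) and 0.52 (SE 0.11) from the controls with no overlap. The ratio of Cd28 to Cd3e was lower by -0.92 (SE 0.20) and -1.005 (SE 0.22), and that of Lck by -0.28 (SE 0.07) and -0.33 (SE 0.05), again with no overlap. With Cd3d as the reference, the Lck ratio differed by -0.13 (SE 0.14) and -0.17 (SE 0.12) and overlapped both controls, and the Cd28 ratio (-0.77, SE 0.33, and -0.85, SE 0.31) overlapped wild type but not pMT-10 without zinc. The Lat ratio stayed without overlap there (0.50, SE 0.17, and 0.68, SE 0.15). The ratios of Zap70, Lcp2 and Cd3d to Cd3e overlapped both controls in CD4 cells. Each exact two-sided permutation test of 3 against 3 libraries without overlap gave 0.1, which is the smallest p the design allows.

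In CD8 cells the ratio of Lat to Cd3e was also higher in zinc-fed pMT-10 mice, by 0.22 (SE 0.08) against wild type and 0.22 (SE 0.06) against pMT-10 without zinc, with no overlap. The ratio of Cd3g to Cd3e was higher by 0.42 (SE 0.11) and 0.41 (SE 0.15), without overlap. The ratio of Cd247 to Cd3e was lower by -0.67 (SE 0.25) against pMT-10 without zinc with no overlap, and by -0.26 (SE 0.15) against wild type with overlap. The levels of Cd3g and Lat were not called in CD8 cells, and their ratios have no share of all genes to stand beside. The ratio of Lcp2 to Cd3e was higher by 0.45 (SE 0.23) against wild type without overlap, and overlapped pMT-10 without zinc. With Cd3d as the reference, 0 ratios were without overlap in CD8 cells against wild type.

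**Figure D4:**
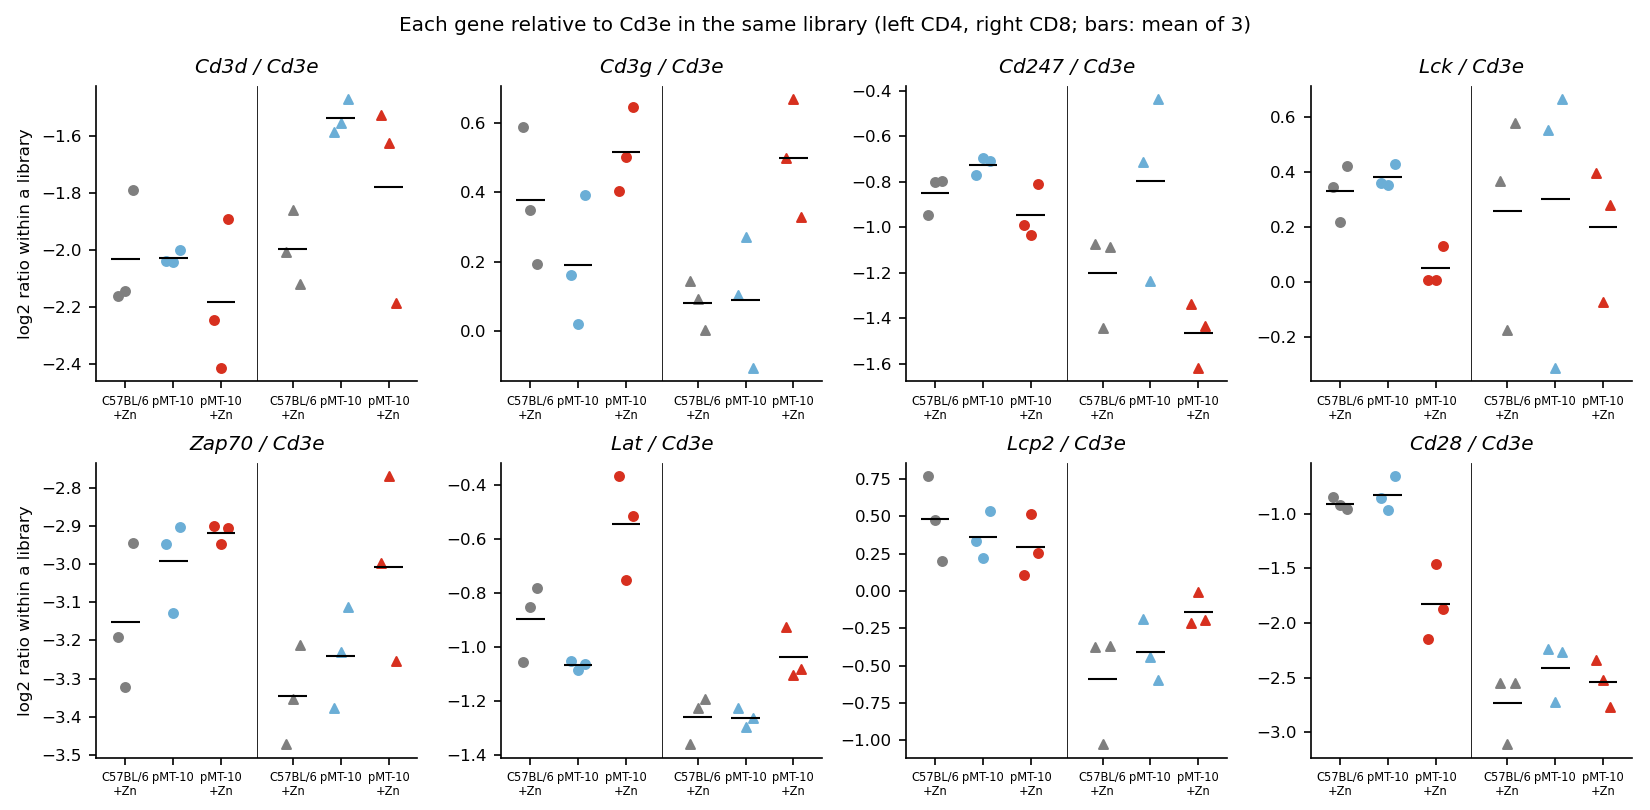
Log2 ratio of each gene to Cd3e in the same library (y axis) by kind of mouse (x axis; CD4 left of the line, CD8 right; bars are means of 3). In CD4 cells of zinc-fed pMT-10 mice, Lat is above and Lck and Cd28 are below both controls.

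The genes' profiles over the 6 groups were compared by the root mean square difference of centred log2 CPM, as a description. The closest pairs were Cd3e with Lck (0.11), Cd3g with Zap70 (0.12) and Cd3g with Lat (0.14). Cd28 was the most distant, at 0.44 from Lcp2 and 0.62 or more from the others. Outside the 9, for those whose means spanned at least 1 log2 unit, the tested genes nearest to Cd3g were Ubac2 (0.06), Itpk1 (0.08) and Il21r (0.09). Those nearest to Cd247 were Ccdc92 (0.07), Dexi (0.07) and Dera (0.09), and those nearest to Lat were Gm16861 (0.09), Bak1 (0.10) and Tigd3 (0.11). For Lcp2 they were Rnh1 (0.06), Srgn (0.08) and Skida1 (0.08), and for Cd28 they were Mcu (0.08), Snai2 (0.09) and Ssh1 (0.09). All of these rest on the same 6 group means and libraries.

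The rest of the pathway was read from lists of its parts, comparing zinc-fed pMT-10 with wild-type mice on the same water. Of the receptor chains proper, 1 gene of 8 listed, Ptcra, was found in the files and it was too low to test, so the alpha and beta chains are not analysed here. Of 17 other kinases and adaptors tested, 5 rose and 1 fell in CD4 cells, where 9.29% of all genes were called higher and 9.40% lower. In CD8 cells 0 rose and 1 fell, where 5.68% of all genes were called higher and 3.13% lower. At an unadjusted p under 0.05, 1 of the 17 was higher and 2 were lower in CD8 cells, where 12.8% of all genes were higher and 10.1% lower. Fyn, the second Src kinase of T cells, rose 2.43-fold in CD4 cells (224 ± 24.5 to 542 ± 108 CPM, SD, n = 3, adjusted p = 1.24e-05), Sh2d2a, an adaptor that binds Lck, rose 2.13-fold and Themis rose 1.97-fold. Rhoh, a GTPase needed for Zap70 recruitment, was lower in both cell types: its log2 change was -0.83 in CD4 and -0.66 in CD8 cells. Against pMT-10 without zinc, Rhoh was called lower in CD4 but not in CD8 cells.

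Of 18 negative regulators tested, 5 rose and 4 fell in CD4 cells, beside 9.29% of all genes called higher and 9.40% lower. Lax1, a Lat-like adaptor that dampens signalling, rose 4.11-fold in CD4 (30.6 ± 10.3 to 126 ± 33.0 CPM, adjusted p = 1.22e-06) and 2.10-fold in CD8 cells (adjusted p = 0.00219). Ubash3b, a phosphatase that acts on Zap70, rose 1.93-fold and Sla2, an adaptor in receptor turnover, rose 1.90-fold in CD4 cells. Against pMT-10 without zinc, Lax1 was called higher again in CD4 cells, while Ubash3b and Sla2 were not called. Dgka, a diacylglycerol kinase high in resting T cells, had a log2 change of -1.31, Ptpn6, the phosphatase SHP-1, of -1.23 and Dok2 of -0.73, all lower. In CD8 cells 1 rose (Lax1) and 1 fell (Ptpn6, log2 -0.61), beside 5.68% of all genes called higher and 3.13% lower. Lax1 was also called higher in CD8 cells against pMT-10 without zinc, and Ptpn6 was not called there. In the test of the change in CD8 minus that in CD4 cells, Dgka was called higher (1.09, adjusted p = 0.00602) and Sla2 lower (-1.06, adjusted p = 0.047). Against pMT-10 without zinc that test again called Dgka higher and did not call Sla2.

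Of 19 genes of the downstream branches, 4 rose and 1 fell in CD4 cells, beside 9.29% of all genes called higher and 9.40% lower. In CD8 cells 0 were called by edgeR, beside 5.68% of all genes called higher and 3.13% lower. At an unadjusted p under 0.05, 3 were lower and 0 higher there, beside the same 10.1 and 12.8% of all genes. DESeq2 counts were made for the 9 genes of the receptor complex and not for these lists. Nfatc2, a transcription factor activated by calcineurin, rose 1.78-fold, Pik3cd, the PI3-kinase catalytic subunit of leukocytes, 1.71-fold and Ppp3cc, a calcineurin subunit, 1.69-fold in CD4 cells. Pik3r1, the regulatory PI3-kinase subunit, fell (log2 -1.07).

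Of 14 costimulatory receptors and ligands, 4 rose and 3 fell in CD4 cells, beside 9.29% of all genes called higher and 9.40% lower. In CD8 cells 4 rose and 1 fell, beside 5.68% of all genes called higher and 3.13% lower. Ctla4, which competes with CD28 for its ligands, fell in CD4 cells (215 ± 53.6 to 90.2 ± 10.3 CPM, SD, n = 3, log2 -1.25, adjusted p = 0.00177) and rose 5.25-fold in CD8 cells (2.07 ± 1.23 to 10.9 ± 4.44 CPM, adjusted p = 0.000132). Its change differed between the cell types (log2 3.60, adjusted p = 0.000107), as did those of Cd80 and Slamf1. Tnfrsf9 (4-1BB) rose in both, 2.06-fold in CD4 and 2.53-fold in CD8 cells. In CD4 cells Cd48 rose 1.72-fold and Cd6 1.46-fold, while Cd40lg (log2 -0.85) and Icos (log2 -0.60) fell. In CD8 cells Slamf1 rose 3.33-fold and Tnfrsf18 fell (log2 -0.46). Cd80 was also called higher in CD8 cells, at 1.35 ± 0.65 CPM beside 0.022 ± 0.039 in wild type (SD, n = 3). Against pMT-10 without zinc, 4 of the 14 rose and 5 fell in CD4 cells, beside 9.38% of all genes called higher and 9.40% lower. In CD8 cells 4 rose and 0 fell there, beside 5.10% of all genes called higher and 2.65% lower.

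**Figure D5:**
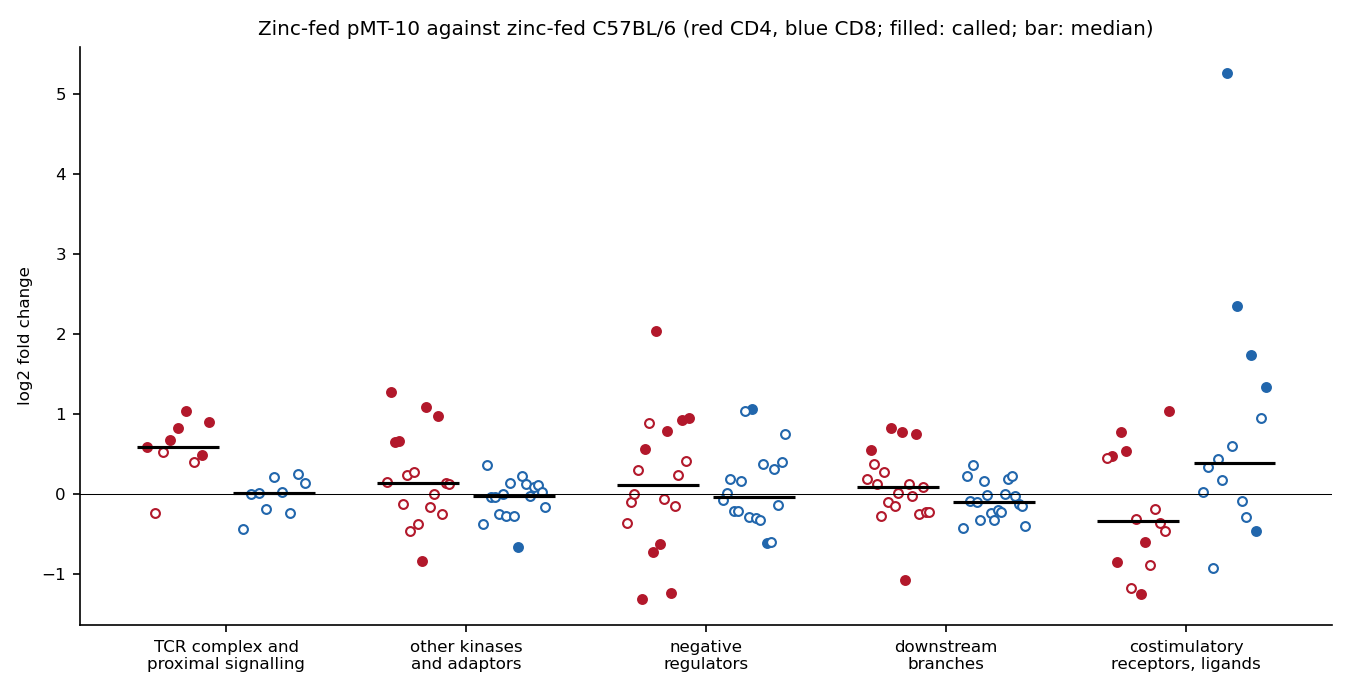
Log2 fold change (y axis) of each tested gene in zinc-fed pMT-10 relative to wild-type mice on zinc, by list (x axis), in CD4 (red) and CD8 cells (blue). Filled points were called, and bars are medians, of which the receptor complex in CD4 cells has 0.58.

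The counterparts of these genes in B, NK and myeloid cells were listed as well. Of 9 tested, 2 rose and 1 fell in CD4 cells against wild type, beside 9.29% of all genes called higher and 9.40% lower. In CD8 cells 1 rose and 1 fell, beside 5.68% of all genes called higher and 3.13% lower. Lat2, the adaptor of B and myeloid cells, rose 4.23-fold in CD4 (3.82 ± 2.36 to 16.1 ± 5.15 CPM) and 17.9-fold in CD8 cells (1.12 ± 0.088 to 20.0 ± 8.36 CPM, SD, n = 3). Hcst, the adaptor DAP10, rose 1.62-fold in CD4 cells, and Cd79b, a signalling chain of the B cell receptor, fell (log2 -1.64). Fcer1g, which can stand in for the zeta chain, fell in CD8 cells (log2 -1.70, adjusted p = 0.033), where its level was 7.90 ± 3.25 CPM beside 25.6 ± 14.2 in wild type. Fcer1g was not called in CD8 cells against pMT-10 without zinc.

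The marker lists of other cell types moved with the groups as follows. In CD4 cells the summed B cell markers ran from 27.0 to 32.4 CPM in wild type, 29.9 to 37.3 without zinc and 6.59 to 22.1 in zinc-fed pMT-10, with Pax5 at 0 in all. The 9 neutrophil markers summed to at most 3.59 CPM in any CD4 library, with Mpo, Ly6g and Mmp8 at 0. The 6 NK cell markers summed to 42.4 to 53.3 CPM in wild type, 179.6 to 203 without zinc and 9.81 to 16.03 in zinc-fed pMT-10, where Ncr1 was at 0. NK cells also express Zap70, Cd247, Lat and Lcp2, whose CD4 levels were highest where this sum was lowest, and the part of NK cells was not tested. The summed level of the 8 monocyte and macrophage markers was 461 to 469.6 CPM in zinc-fed pMT-10 beside 302 to 339 and 282 to 319.6. Of the 4 tested, Ccr2 (175 ± 19.5 CPM beside 61.4 ± 10.9 in wild type and 88.1 ± 19.6 without zinc) was called higher against both controls and Ctss (283 ± 21.7 beside 244 ± 11.4 and 204 ± 33.9) against pMT-10 without zinc. Ms4a6c was called lower against pMT-10 without zinc (4.75 ± 3.13 beside 12.6 ± 2.79 CPM, SD, n = 3). Cd14 was at 0 in zinc-fed pMT-10 CD4 cells, and the part of these markers in the results was not tested. The 5 lymphoid precursor markers found, which include Il7r, were lower there, at 199.5 to 540.4 CPM beside 912 to 1131 and 867 to 1029.7, and the 2 tested, Il7r and Dntt, were called lower against both controls. The 4 erythroid markers found summed to 0.0760 to 1.88 CPM in wild type, 0 to 0.382 without zinc and 0.749 to 4.34 in zinc-fed pMT-10 CD4 cells, and to at most 1.74 CPM in any CD8 library. The only one tested, Alas2, was called higher in CD4 cells against wild type (1.76 ± 1.85 CPM, with 0 in all 3 wild-type libraries, adjusted p = 0.0403), and its change against wild type was called lower in CD8 than in CD4 cells. Klf1 was at 0 in all 9 CD4 libraries, and the part of erythroid RNA was not tested.

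In CD8 cells the NK cell markers summed to 62.7 to 93.3 CPM in wild type, 55.4 to 103 without zinc and 51.4 to 75.4 in zinc-fed pMT-10. Of the 3 tested, Gzma was called higher against both controls (25.6 ± 17.1 CPM beside 2.27 ± 0.72 in wild type and 1.31 ± 0.876 without zinc, SD, n = 3), while Klre1 and Klrb1c were not called and the list's median log2 changes were -0.76 and -0.78. The monocyte markers summed to 156 to 213, 179.5 to 192 and 183 to 202 CPM. The 5 gamma-delta and innate-like T cell markers summed to at most 5.15 CPM in the controls and to 10.2 to 23.0 CPM in zinc-fed pMT-10. Most of that sum was Maf (16.2 ± 6.27 CPM beside 2.93 ± 1.29 in wild type and 1.51 ± 0.425 without zinc, SD, n = 3), which was called higher against both controls. Against wild type it was the only one called of 3 tested, with a list median of -0.07. Among the sort markers, Cd8b1 stood at 2478 ± 186 CPM in wild type and 1702 ± 194 in zinc-fed pMT-10 CD8 cells and Thy1 at 4978 ± 646 and 3409 ± 429 (SD, n = 3). Both were called lower against wild type. Neither was called against pMT-10 without zinc, where Cd8b1 stood at 2294 ± 270 and Thy1 at 4203 ± 782 CPM. In CD4 cells Ptprc (CD45, the phosphatase that primes Lck) was called higher, at 1669 ± 253 against 1193 ± 61.6 CPM. Cd4 itself stood at 3251 ± 132 against 2190 ± 109 CPM there and was not called (log2 0.57, adjusted p = 0.295). Its ranges did not overlap, with 3163 to 3404 CPM against 2066 to 2269 in wild type. The test shares 1 estimate of the spread per gene over all 18 libraries. Those include the CD8 libraries, where Cd4 reached at most 5.55 CPM. The part of these shifts in the receptor complex values was not tested.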

How the data were processed

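RNA of sorted T cells was measured with an amplicon panel (1 amplicon per gene). The authors deposited raw read counts per gene, which were used as deposited; the genome build was mm10, per the submitters' processing notes, and the aligner and counter were not given in the sources used here. Groups came from the sample labels. Genes with low counts were removed (filterByExpr, 11316 kept), libraries were scaled by TMM, and 6 group means over 18 libraries were fitted with edgeR 4.0.16 (quasi-likelihood, robust; R 4.3.3; limma 3.58.1), with Benjamini-Hochberg adjustment and calls under 0.05. The fit was tested on simulated data. Alternatives were DESeq2 1.42.0, other scaling, no filter, fits of the compared groups alone and leaving out each library. Totals of 10546798 to 18519474 counts make 1 CPM 10.5 to 18.5 reads. The members and lists were chosen with earlier results of these data known. From each pathway list, called genes with the largest changes against wild type were named, at most 3 in each direction, and for profiles the 3 nearest genes where group means spanned at least 1 log2 unit. The alternative without the shallowest CD8 libraries was added after seeing the data.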

Additional observations from a re-analysis of the deposited data

Results flagged for a closer look

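The change in zinc-fed pMT-10 mice differed between CD8 and CD4 cells for 5 genes by the test of the difference itself (edgeR, log2 change in CD8 minus that in CD4 cells). Against zinc-fed C57BL/6 mice the differences were -0.874 for Cd3e, -1.02 for Cd247, -0.763 for Zap70 and -1.01 for Lat. Against pMT-10 mice without zinc they were -0.829 for Cd3e, -0.769 for Cd3g, -1.28 for Cd247 and -1.14 for Lat. Zap70 against wild type kept its call in 3 of the 12 fits that left out a library and Cd3g against pMT-10 without zinc in 5 of 12. With total counts as the scale neither was called (adjusted p = 0.105 for Zap70 and 0.0587 for Cd3g). Of all genes tested, 2.08% had a lower change in CD8 cells against wild type and 1.34% against pMT-10 without zinc. The 2 sets share the zinc-fed pMT-10 libraries.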

How the results depend on the processing

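Of 34 calls over 11 comparisons, 31 were kept in every other planned fit, 26 in every fit without 1 library, and 26 in all. No paired analysis was possible because the labels carry no number that ties libraries of different groups. Counts that moved by more than 1.5-fold, or from or to 0, were as follows. The counts of 6 and 7 genes in CD4 cells also changed, within that ratio, as Cd3d, Lck and Cd247 gained or lost calls. In CD8 cells against pMT-10 without zinc, 1 gene was higher with library size only, with DESeq2 and without the shallowest CD8 libraries, and 0 were lower when only the compared groups were fitted; leave-one-out gave 0 to 1 for each. Between CD8 and CD4 cells, 1 was higher in wild type with DESeq2 and without the shallowest libraries (leave-one-out 0 to 2), and without zinc 2 were higher without the shallowest libraries and 1 to 2 lower in leave-one-out. The difference between cell types held for 2 genes against wild type without the shallowest libraries, and for 2 to 5 in leave-one-out against either control. With Cd3d as the reference, ratios without overlap numbered 0 (CD8 against wild type) and 3 (CD4 against no zinc). With Cd3e, leave-one-out gave 3 to 5 for CD4 against wild type, 3 to 6 for CD8 against wild type and 3 to 5 for CD8 against no zinc. No share of all genes was computed for these ratio counts. The cause was not tested.

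Only uncalled log2 changes reversed. Against wild type in CD8 cells, Cd28 gave -0.00275 with no filter and -0.0163 without the shallowest libraries. With library size only, Zap70 gave 0.0121 (no zinc against wild type, CD4) and -0.0182 (CD8 against CD4, no zinc), and Cd3g -0.00588 (CD8 against CD4, wild type). Without the shallowest libraries these CD8 against CD4 values were -0.0325 for Zap70 and -0.0287 for Cd3g, and Cd247 gave 0.0271 in wild type. Leave-one-out ranges crossed 0 for zinc-fed pMT-10 CD8 cells against wild type in Cd3d (-0.105 to 0.196), Lat (-0.0507 to 0.153) and Cd28 (-0.0962 to 0.0842), and against no zinc in Cd3e (-0.0692 to 0.115) and Lck (-0.274 to 0.119). For no zinc against wild type they did so in CD4 for Cd3d (-0.33 to 0.0345), Cd247 (-0.175 to 0.0517), Lck (-0.201 to 0.00716) and Zap70 (-0.131 to 0.175), and in CD8 for Lck (-0.311 to 0.0404), Zap70 (-0.196 to 0.0155) and Lcp2 (-0.168 to 0.0728). For CD8 against CD4 they did so in wild type for Cd3g (-0.0289 to 0.148), Cd247 (-0.133 to 0.0968) and Lat (-0.173 to 0.118), in zinc-fed pMT-10 for Cd3d (-0.299 to 0.0142) and without zinc for Zap70 (-0.0242 to 0.187). The Cd28 difference between cell types against no zinc ran from -0.0625 to 0.152. The 9 genes held at least 1341 reads in every library, and the part of depth in their values was not tested.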
